A study of Populus tremula x Populus alba with 4 samples.

Results

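Laccases are copper-containing oxidases of the plant cell wall. They turn monolignols into radicals, which then couple into lignin, and in Arabidopsis several laccases act together in the lignification of stems. In bark, the tissues outside the vascular cambium, lignin is laid down in the walls of phloem fibres among other cells. The laccase family examined here is a list of 41 poplar gene IDs out of 41335 transcript IDs in the deposited files. Its members were chosen by ID, with earlier results of these data known. All 41 were present, with 1 transcript each. The deposited IDs come without gene names, and no genome annotation was at hand to supply them. Membership in the family was therefore taken from the list, and no role is given to a single member.

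RNA came from bark of the hybrid poplar Populus tremula x Populus alba, clone INRA 717-1B4, and was sequenced as paired-end libraries. There were 2 wild-type (WT) libraries and 2 from MIR15 transgenic plants of the same clone. Plants of both genotypes were raised aseptically on Woody Plant Medium, with kanamycin at 50 mg/l where it was needed, then moved to soil and kept in a climate chamber at 24 °C with 16 h of light. The labels call the 2 libraries of each genotype biological replicates, and say neither what the MIR15 construct targets nor whether its replicates are separate transgenic lines, so p-values measure only the spread between these samples. The labels give no plant age. Markers of phloem, periderm and xylem could not be looked up without an annotation, and the tissue label was not tested here.

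The libraries held between 68453851 and 82789893 total gene reads. A level is given in CPM, the total gene reads per 1000000 reads of the library, with no division by transcript length, which the files do not give; an order of CPM is therefore an order of reads and not of transcripts. In tissue samples such as these, fewer cells of a type and less RNA per cell cannot be told apart.

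Of the 41 laccases, 23 had at least 10 total gene reads in each library, 11 had reads but fewer than 10 in some library, and 7 had no read at all. By library, 28 members reached 10 reads in WT replicate 1 and 26 in each of the other 3 libraries. A mean of at least 1 CPM was reached by 22 members, and a mean of at least 10 CPM by 10. These 10 members took between 81.6% and 83.4% of all laccase reads in the 4 libraries.

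**Figure D1:**
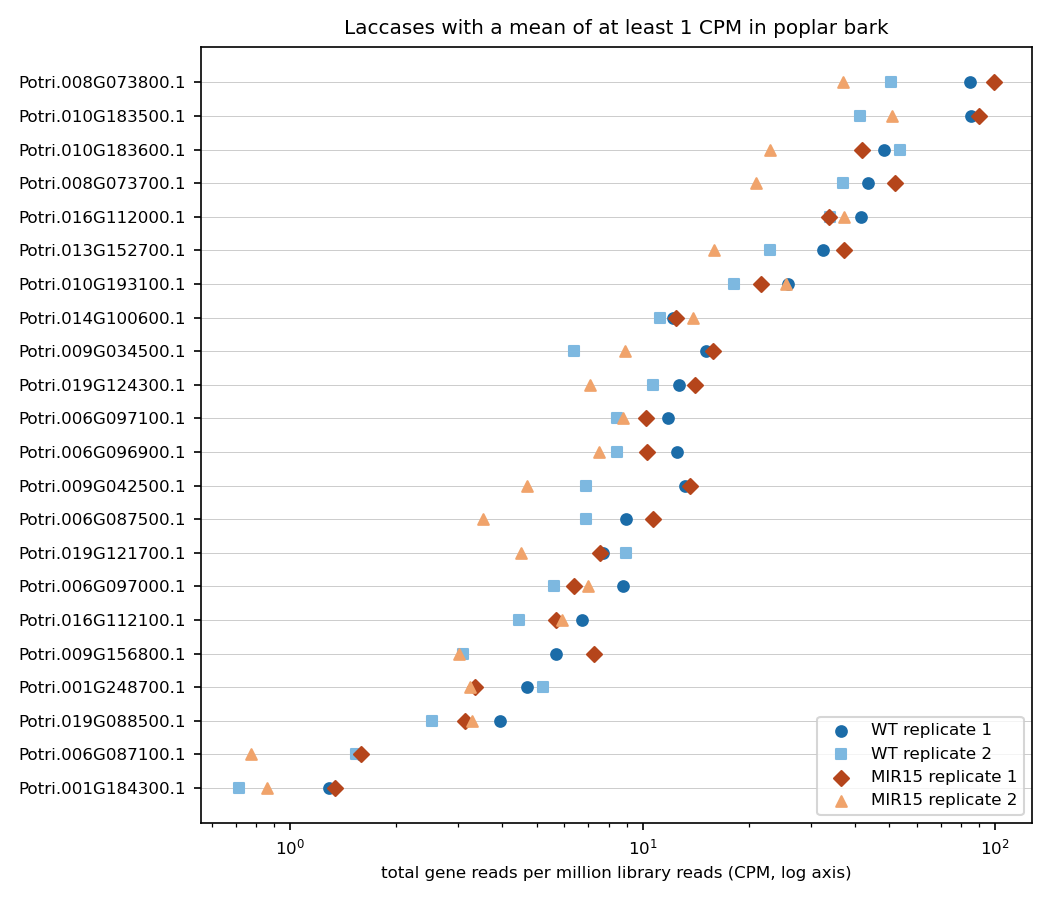
Total gene reads in CPM (log axis) of the 22 laccases with a mean of at least 1 CPM, with 1 point for each library and members ordered by mean CPM. MIR15 replicate 2 is the lowest of the 4 libraries in 12 members, against 21.7% of all genes at that level. MIR15 replicate 1 is the highest in 11, against 24.3%. WT replicate 2 is the lowest in 9, against 25.7%, and WT replicate 1 the highest in 7, against 18.8%.

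In every library but MIR15 replicate 2, most laccase reads came from 2 pairs of genes with neighbouring IDs. The pairs were Potri.008G073700.1 with Potri.008G073800.1 and Potri.010G183500.1 with Potri.010G183600.1. Together these 4 genes took 53.4% of laccase reads in WT replicate 1 (95% Wilson interval 52.96% to 53.9%) and 52.2% in WT replicate 2 (51.6% to 52.8%). In MIR15 they took 56.5% in replicate 1 (55.9% to 56.98%) and 44.8% in replicate 2 (44.1% to 45.5%). The share was thus lowest in MIR15 replicate 2, and the 2 MIR15 libraries lay on either side of the WT libraries. These intervals cover counting error only, and not the spread between samples. Reads made by PCR are not independent molecules, so the intervals can be too narrow even for counting error.

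Potri.008G073800.1 had 84.9 and 50.5 CPM in WT replicates 1 and 2, and 99.3 and 37.1 CPM in MIR15 replicates 1 and 2. The MIR15 libraries enclosed the WT libraries. Its log2 fold change in MIR15 was 0.03 ± 0.45 (SE; edgeR adjusted p = 1.00).

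Potri.010G183500.1 had 85.6 and 41.4 CPM in WT, and 89.99 and 50.8 CPM in MIR15, in the same order of replicates. Replicate 1 was the higher library in each genotype, and the groups overlapped. Its log2 fold change was 0.17 ± 0.38 (SE; edgeR adjusted p = 1.00).

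Potri.010G183600.1, the neighbour of Potri.010G183500.1, had 48.3 and 53.7 CPM in WT and 41.96 and 23.01 CPM in MIR15. Unlike its neighbour, it was not lower in WT replicate 2 than in WT replicate 1. Between the MIR15 libraries the copies differed alike, with ratios of replicate 1 to replicate 2 of 1.82 and, in the neighbour, 1.77. Both MIR15 libraries lay below both WT libraries. The means were 51.02 ± 3.80 CPM in WT and 32.5 ± 13.4 CPM in MIR15 (SD, n = 2 each). The log2 fold change of -0.63 ± 0.27 (SE) missed the threshold (edgeR unadjusted p = 0.0529, adjusted p = 1.00). Most of the difference came from MIR15 replicate 2: without that library the log2 fold change was -0.24, and without MIR15 replicate 1 it was -1.14.

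Potri.008G073700.1 had 43.6 and 37.01 CPM in WT, and 51.99 and 21.0 CPM in MIR15. As with Potri.008G073800.1, MIR15 replicate 1 was the highest and MIR15 replicate 2 the lowest of the 4 libraries. Its log2 fold change was -0.12 ± 0.38 (SE; edgeR adjusted p = 1.00).

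The other 6 members above a mean of 10 CPM fell into 3 whose MIR15 libraries lay close together and others whose MIR15 libraries lay farther apart. Among those with close MIR15 libraries, Potri.016G112000.1 had 41.5 and 33.96 CPM in WT, and 33.8 and 37.2 CPM in MIR15. Potri.010G193100.1 had 25.8 and 18.1 CPM in WT, and 21.6 and 25.5 CPM in MIR15. Potri.014G100600.1 had 12.2 and 11.2 CPM in WT, and 12.4 and 13.9 CPM in MIR15. In these 3 genes MIR15 replicate 2 was above MIR15 replicate 1, the reverse of the order seen in the 4 genes with most reads. In Potri.014G100600.1 both MIR15 libraries lay above both WT libraries, by a log2 fold change of 0.19 ± 0.18 (SE; edgeR adjusted p = 1.00).

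Potri.013G152700.1 had 32.4 and 22.9 CPM in WT, and 37.2 and 15.9 CPM in MIR15. Potri.009G034500.1 had 15.1 and 6.37 CPM in WT, and 15.8 and 8.90 CPM in MIR15. Potri.019G124300.1 had 12.7 and 10.7 CPM in WT, and 14.1 and 7.10 CPM in MIR15. In each of these, replicate 1 was the higher library of both genotypes, and the genotypes overlapped. The log2 fold changes of Potri.016G112000.1, Potri.010G193100.1, Potri.013G152700.1, Potri.009G034500.1 and Potri.019G124300.1 were -0.07 ± 0.16, 0.12 ± 0.21, -0.04 ± 0.38, 0.22 ± 0.43 and -0.11 ± 0.32 (SE), each with an edgeR adjusted p of 1.00.

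Summed over all 41 laccases, the level was 491 and 350.2 CPM in WT replicates 1 and 2, and 502 and 295 CPM in MIR15 replicates 1 and 2. The libraries of one genotype were farther apart than the genotype means, which were 421 ± 99.5 CPM in WT and 398 ± 146 CPM in MIR15 (SD, n = 2 each). The log2 ratio of MIR15 to WT was -0.08. It turned with the library left out, from -0.51 without MIR15 replicate 1 to 0.25 without MIR15 replicate 2, and was 0.18 without WT replicate 1 and -0.30 without WT replicate 2. The 4 genes of the Potri.008G and Potri.010G pairs carried most of the gap between the MIR15 libraries, with 283 and 132 CPM, whereas the other 37 members summed to 218 and 163 CPM there.

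**Figure D2:**
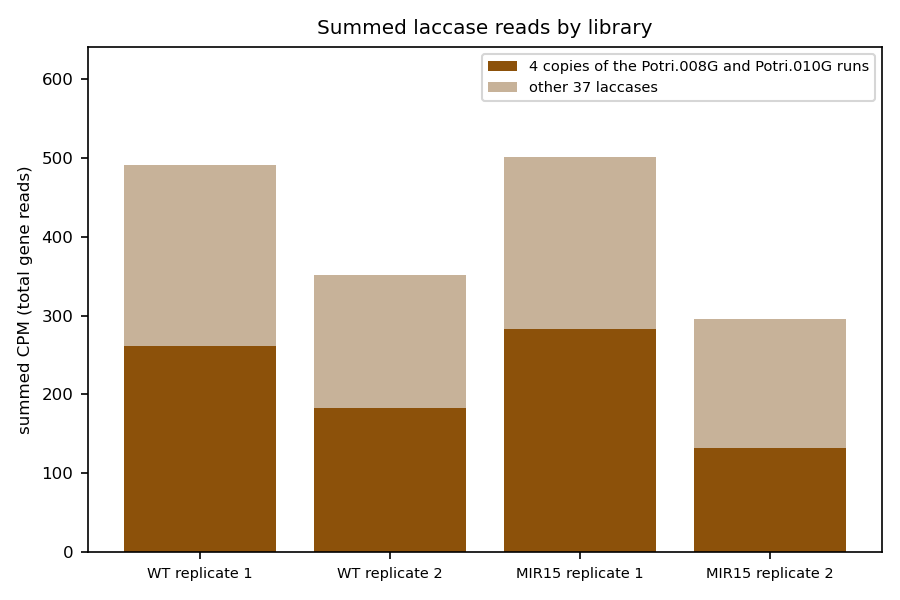
Summed total gene reads in CPM of the laccases in each library, stacked as the 4 copies of the Potri.008G and Potri.010G runs and the other 37 members. Replicate 1 is higher than replicate 2 in both genotypes, at 491 against 350.2 CPM in WT and 502 against 295 CPM in MIR15.

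By ID order, 22 of the 41 laccases stood in 10 runs of neighbours, in which ID numbers under the same prefix differed by at most 500 from one member to the next. Such runs may hold tandem copies; positions on the genome were not used here. Reads that match more than 1 place make the totals of close copies uncertain, so copies were compared in unique gene reads. Of the 34 members with any read, 23 had at least 90% unique reads, and 11 had fewer.

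The copies of the Potri.008G and Potri.010G runs were told apart well, with at least 99.5% of their reads unique in every library. In the Potri.010G run, Potri.010G183500.1 took 63.8% of the unique reads of the pair in WT replicate 1 (95% Wilson interval 62.9% to 64.7%), 68.2% in MIR15 replicate 1 (67.2% to 69.1%) and 68.8% in MIR15 replicate 2 (67.5% to 70.0%). In WT replicate 2 it took 43.5% (42.3% to 44.6%). The balance between the copies therefore turned over in WT replicate 2 alone among the 4 libraries.

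In the Potri.008G run, the balance also stood apart in WT replicate 2, by less. The share of Potri.008G073700.1 was 33.99% in WT replicate 1 (95% Wilson interval 33.1% to 34.9%), 34.4% in MIR15 replicate 1 (33.5% to 35.3%) and 36.1% in MIR15 replicate 2 (34.7% to 37.6%). In WT replicate 2 it was 42.4% (41.2% to 43.5%). In both runs, then, the copy with more reads in the other 3 libraries had its smallest share of the pair in WT replicate 2.

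The run of Potri.006G096900.1, Potri.006G097000.1 and Potri.006G097100.1 had 70.6%, 53.7% and 59.9% unique reads, so much of each total was shared. In unique reads, Potri.006G096900.1 had 8.68 and 6.14 CPM in WT, and 7.35 and 5.25 CPM in MIR15. Potri.006G097000.1 had 4.66 and 3.31 CPM in WT, and 3.61 and 3.31 CPM in MIR15. Potri.006G097100.1 had 7.15 and 5.27 CPM in WT, and 6.21 and 4.90 CPM in MIR15. Potri.006G097000.1 had the fewest unique reads of the 3 in every library. Potri.006G096900.1 took 61.3% (95% Wilson interval 57.3% to 65.1%, MIR15 replicate 2) to 67.1% (63.6% to 70.3%, MIR15 replicate 1) of the unique reads of its pair with Potri.006G097000.1. In its pair with Potri.006G097100.1 it took 51.7% (48.0% to 55.4%, MIR15 replicate 2) to 54.8% (52.1% to 57.5%, WT replicate 1).

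Potri.016G112000.1 took 85.5% to 88.5% of the unique reads of its pair with Potri.016G112100.1 (lowest 95% Wilson bound 84.1%, highest 89.6%). Potri.016G112100.1 had 6.51 and 4.23 CPM in WT, and 5.54 and 5.76 CPM in MIR15, in unique reads. Both copies of this run were thus nearly level between the MIR15 libraries. In the run of Potri.006G087100.1 and Potri.006G087500.1, whose reads were all unique, Potri.006G087500.1 had 8.95 and 6.89 CPM in WT, and 10.7 and 3.53 CPM in MIR15. Potri.006G087100.1 had 1.58 and 1.54 CPM in WT, and 1.59 and 0.774 CPM in MIR15. Both copies of this run were lowest in MIR15 replicate 2.

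Potri.009G156600.1 and Potri.009G156800.1 had 47.6% and 48.3% unique reads. In unique reads, Potri.009G156800.1 had 2.66 and 1.47 CPM in WT, and 3.43 and 1.68 CPM in MIR15. Potri.009G156600.1 was read much less, with 13 and 12 unique reads in WT, and 4 and 1 in MIR15. The lowest unique shares were outside the runs: Potri.019G121700.1 had 37.4% unique reads and Potri.019G124300.1 had 40.3%. In unique reads Potri.019G121700.1 had 2.94 and 3.40 CPM in WT, and 2.88 and 1.53 CPM in MIR15. Its MIR15 libraries lay below its WT libraries in both kinds of count, but MIR15 replicate 1 only narrowly. That library had 2.88 CPM against 2.94 CPM in WT replicate 1 in unique reads, and 7.57 against 7.73 CPM in total reads.

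**Figure D3:**
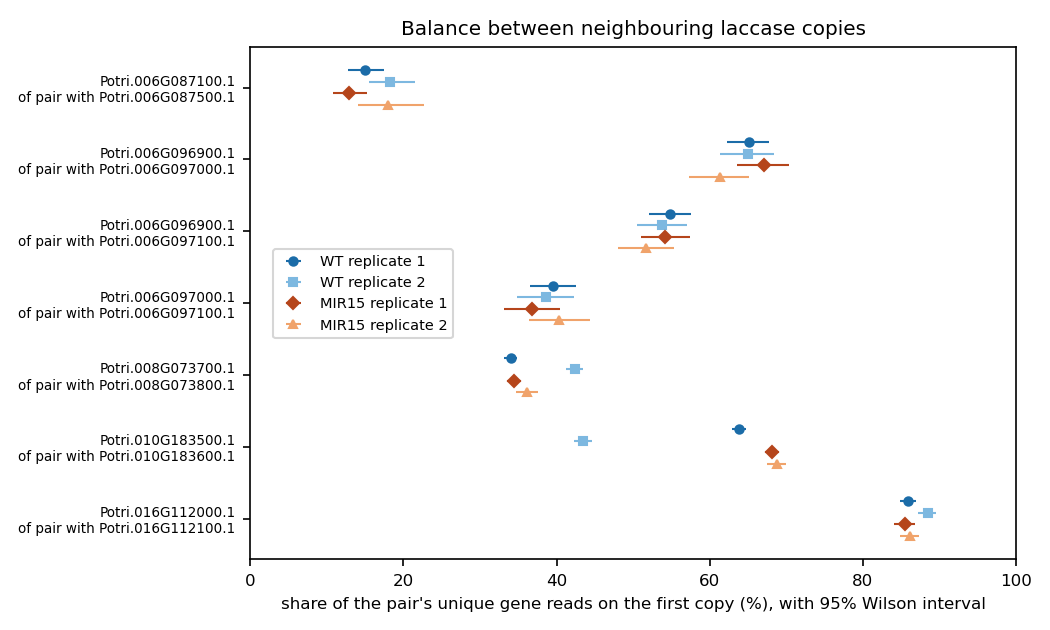
Share of a pair's unique gene reads that fell on the first-named copy (%), for each pair of neighbouring copies with at least 10 unique reads in every library, with 95% Wilson intervals for counting error and 1 point for each library. The Potri.010G pair stands at 43.5% in WT replicate 2 and between 63.8% and 68.8% in the other 3 libraries.

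Runs of neighbours also held most of the silent members. Potri.016G106000.1, Potri.016G106100.1, Potri.016G106300.1, Potri.016G107500.1 and Potri.016G107900.1, which make up 2 runs, had no read in any library. The other 2 members without reads were Potri.001G341600.1 and Potri.015G040400.1. A count of 0 allows up to 0.0362 CPM in WT replicate 1 and up to 0.0438 CPM in MIR15 replicate 1, the deepest and the shallowest library.

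The 11 members between these and the 23 read in every library were at the edge of detection. Potri.001G206200.1 had 2 and 0 reads in WT, and 1 and 11 reads in MIR15, so 1 library supplied nearly all of them. Potri.001G401300.1 had 18 and 7 reads in WT, and 18 and 3 in MIR15, whereas its neighbour Potri.001G401100.1 had 0 and 2 reads in WT, and 0 and 1 in MIR15. Just below 10 reads in 1 library stood Potri.011G120200.1, with 32 and 8 reads in WT and 41 and 30 in MIR15, and Potri.006G094100.1, with 14 and 15 in WT and 9 and 11 in MIR15. Just above stood Potri.011G120300.1, the neighbour of Potri.011G120200.1, with 35 and 33 reads in WT and 53 and 12 in MIR15. The other 6 were Potri.009G156600.1, with 33 and 18 reads in WT and 11 and 1 in MIR15, and Potri.001G054600.1, Potri.012G048900.1, Potri.008G064000.1, Potri.009G102700.1 and Potri.007G023300.1, which had 14 reads or fewer in any library.

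Libraries of one genotype differed widely in laccase reads, and more so in MIR15. Of the 22 members with a mean of at least 1 CPM, 19 were higher in WT replicate 1 than in WT replicate 2, by a median of 1.42-fold over the 22, where 46.0% of all tested genes at that level were higher. In MIR15, 16 of the 22 were higher in replicate 1, by a median of 1.72-fold over the 22, against 45.8% of all tested genes. Both held for 13 members, against 23.6% of all tested genes at that level. Replicate numbers follow the sample titles, and no label says that same-numbered libraries of different genotypes share an origin. The count of 13 therefore follows title numbers and does not describe paired samples. The 3 members not higher in WT replicate 1 were Potri.001G248700.1, Potri.010G183600.1 and Potri.019G121700.1.

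Differences over 2-fold between the MIR15 libraries were found in 7 of the 22 members, all higher in replicate 1, where 3.21% of all tested genes at that level differed by over 2-fold in either direction and 1.14% did so with replicate 1 higher. These 7 were Potri.006G087100.1, Potri.006G087500.1, Potri.008G073700.1, Potri.008G073800.1, Potri.009G042500.1, Potri.009G156800.1 and Potri.013G152700.1. They were picked out by these values, and 6 of them had over 90% unique reads. The ratio of replicate 1 to replicate 2 was 3.04 in Potri.006G087500.1, with an exact 95% counting interval from 2.63 to 3.53. It was 2.89 in Potri.009G042500.1 (2.55 to 3.29), which had 13.2 and 6.92 CPM in WT and 13.6 and 4.69 CPM in MIR15.

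Between the WT libraries, 2 of the 22 members differed by over 2-fold, Potri.010G183500.1 and Potri.009G034500.1, against 3.53% of all tested genes at that level in either direction and 1.36% with replicate 1 higher. Their ratios of replicate 1 to replicate 2 were 2.07 (exact 95% counting interval 1.98 to 2.16) and 2.38 (2.14 to 2.64). In MIR15 both were also higher in replicate 1, with ratios of 1.77 (1.70 to 1.85) and 1.78 (1.61 to 1.96).

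By contrast, 6 members were slightly lower in MIR15 replicate 1 than in replicate 2, the lowest ratio being 0.847, and all 6 were higher in WT replicate 1 than in WT replicate 2. They were Potri.006G097000.1, Potri.010G193100.1, Potri.014G100600.1, Potri.016G112000.1, Potri.016G112100.1 and Potri.019G088500.1. Potri.019G088500.1 had 3.94 and 2.53 CPM in WT, and 3.14 and 3.28 CPM in MIR15. Summed, these 6 members had 98.9 and 75.9 CPM in WT, and 83.03 and 92.8 CPM in MIR15. The 7 members named above summed to 190.4 and 129 CPM in WT, and to 221.7 and 85.996 CPM in MIR15. Both sets were picked by their MIR15 ratio, so that their MIR15 sums go apart is a matter of their definition.

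**Figure D4:**
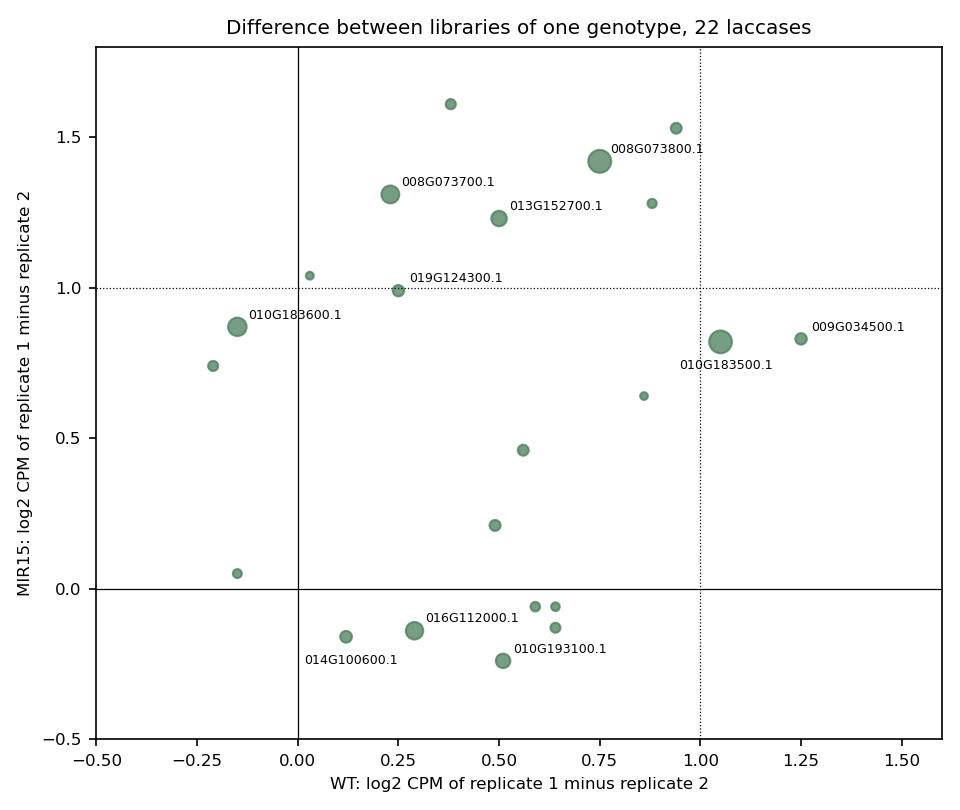
Difference in log2 CPM between replicate 1 and replicate 2 in WT (horizontal) and in MIR15 (vertical) for the 22 laccases with a mean of at least 1 CPM. Point area grows with mean CPM, dotted lines mark a 2-fold difference, and the 10 members with most reads are labelled. On both axes 13 points lie above 0, and 6 lie below 0 for MIR15 and above 0 for WT. Replicate numbers follow the sample titles and do not pair libraries across genotypes.

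Other genes of lignin and the secondary wall were set beside the laccases, without a test of the difference. The 23 IDs listed from general knowledge for monolignol synthesis, the pathway that makes the substrates of laccases, summed to 5766 and 3992 CPM in WT, and to 5151 and 5169 CPM in MIR15. Of these, 20 were higher in WT replicate 1, by a median of 1.19-fold over the 23, and 16 in MIR15 replicate 1, by a median of 1.12-fold, and 0 differed by over 2-fold between the MIR15 libraries. The 5 IDs listed for cellulose synthases of the secondary wall summed to 574 and 414 CPM in WT, and to 490 and 513 CPM in MIR15. All 5 were higher in WT replicate 1 and 1 of the 5 was higher in MIR15 replicate 1. Between the WT libraries both lists' sums were thus higher in replicate 1, as was the laccase sum of 491 against 350.2 CPM. Between the MIR15 libraries the monolignol genes leaned the same way as the laccases by count. Neither list's sum there showed the laccases' gap of 502 against 295 CPM. The part of tissue makeup or sampling in this gap was not tested.

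For MIR15 against WT, 27 laccases had enough reads to be tested, and 0 were called, where 0.00323% of the 30975 genes tested were called by edgeR's quasi-likelihood test at an adjusted p under 0.05. DESeq2 likewise called 0 laccases, against 0.0504% of the genes with an adjusted p. It gave no adjusted p to Potri.009G156600.1, Potri.006G094100.1 and Potri.001G401300.1, which it therefore could not call. The only gene called by edgeR was Potri.003G037700.1, which is not on the laccase list and was named after its values were seen. It had 6.32 and 6.55 CPM in WT, and 0.0438 and 0.0573 CPM in MIR15 (log2 fold change -6.92 ± 0.38, SE; edgeR adjusted p = 0.00749). Its call was lost in unique reads (log2 fold change -6.54, edgeR adjusted p = 0.138), without MIR15 replicate 1 (-6.77, adjusted p = 0.248) and without MIR15 replicate 2 (-7.11, adjusted p = 0.154).

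Among the laccases, 12 log2 fold changes were above 0 and 15 below, with a median of -0.07, beside a median of -0.00083 over all tested genes. At an unadjusted p under 0.05 edgeR gave 1 of 27 laccases, where 2.47% of all tested genes had such a p. DESeq2 gave 2 of 27, Potri.001G248700.1 and Potri.010G183600.1, where 796 of the 30975 genes had one. The MIR15 libraries lay below both WT libraries in 5 of the 27, against 13.9% of all tested genes, and above both in 2, against 11.1%. The 5 were Potri.010G183600.1, Potri.019G121700.1, Potri.001G248700.1, Potri.009G156600.1 and Potri.006G094100.1, and the 2 were Potri.014G100600.1 and Potri.011G120200.1. None of the 23 monolignol genes and none of the 5 cellulose synthases was called in either direction, and 0 of either list had an unadjusted p under 0.05 in edgeR. Their median log2 fold changes were -0.02 and 0.04.

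The laccase with an unadjusted p under 0.05 was Potri.001G248700.1. It had 4.69 and 5.22 CPM in WT, and 3.35 and 3.24 CPM in MIR15. The libraries of each genotype lay close together and the genotypes did not overlap. The means were 4.95 ± 0.375 CPM in WT and 3.29 ± 0.0743 CPM in MIR15 (SD, n = 2 each). The log2 fold change was -0.57 ± 0.24 (SE; edgeR unadjusted p = 0.0456, adjusted p = 1.00). Nearly all of its reads (99.8%) were unique, and in unique reads the log2 fold change was also -0.57 (edgeR unadjusted p = 0.0421). It stayed below 0 with any single library left out, between -0.63 and -0.50.

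With all 4 libraries, the widest log2 fold changes belonged to members with few reads, -1.82 in Potri.009G156600.1 and 1.07 in Potri.011G120200.1, neither of which passed the test. Without MIR15 replicate 1, Potri.001G054600.1 was at -6.54, from 10 and 14 reads in WT and 0 in MIR15 replicate 2. The main fit had not tested it. Potri.009G156600.1 was then at -4.32, from 33 and 18 reads in WT and 1 in MIR15 replicate 2. Both are among the 10 laccases counted next, so that count is not one of well-read members alone. With MIR15 replicate 1 left out, 10 of 28 tested laccases had an unadjusted p under 0.05 in edgeR, all lower in MIR15 replicate 2 than in WT, against 2.77% of the genes tested there. With MIR15 replicate 2 left out, 0 of 28 had one, against 4.24%. Without WT replicate 1, 4 of 28 had one, against 6.35%: Potri.009G034500.1, Potri.010G183500.1 and Potri.011G120200.1 higher in MIR15, and Potri.010G183600.1 lower. Without WT replicate 2, 0 of 27 had one, against 2.02%. No laccase was called at an adjusted p under 0.05 by edgeR in any of these 4 settings, where 0%, 0%, 0.0252% and 0.00316% of the genes tested were called. The smallest edgeR adjusted p of a laccase was 1.00, 0.977, 0.590 and 1.00 in the same order.

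**Figure D5:**
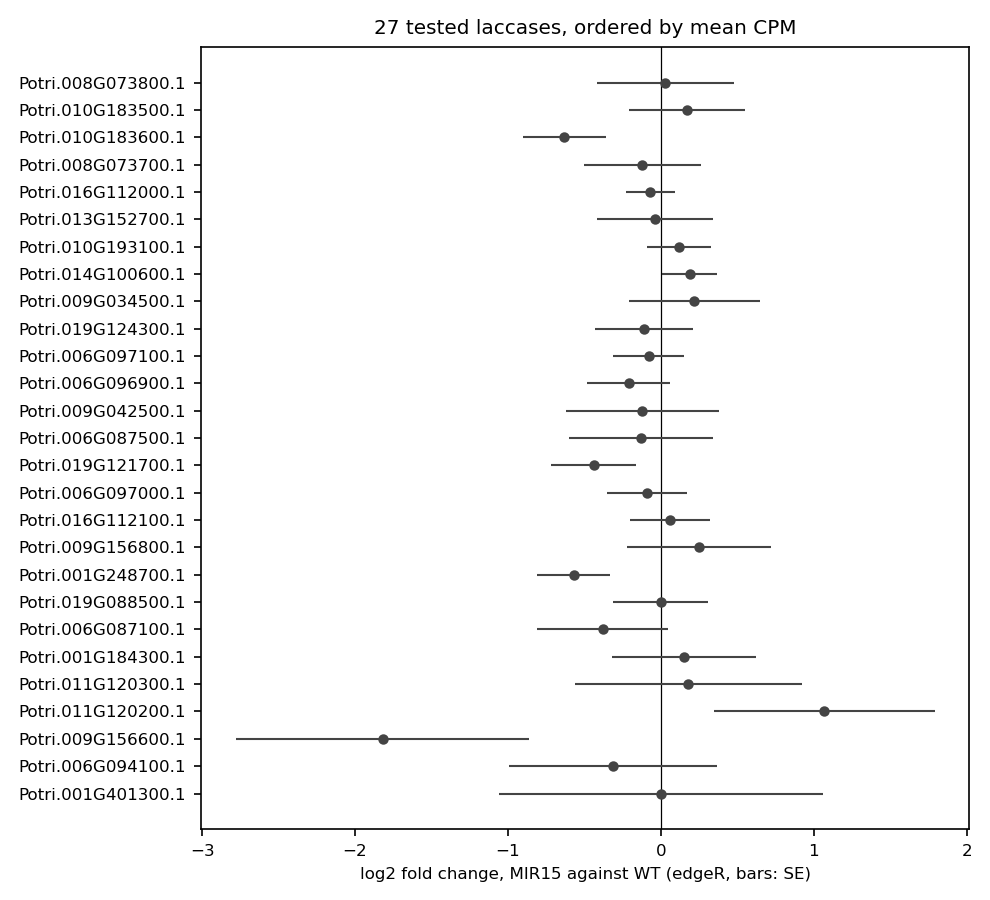
Log2 fold change of MIR15 against WT for the 27 tested laccases, ordered by mean CPM with the highest at the top, from edgeR, with bars for the SE. All values lie between -1.82 and 1.07, and 12 are above 0.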

How the data were processed

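The authors deposited, for each library, the count of unique gene reads, the count of total gene reads and, per the file headers, a signal normalised with DESeq; the counts were made with CLC. The signal equals the total count times 1 constant per library. Aligner, genome build, annotation and the placement of reads that match more than 1 place: not given in the sources used here. Groups and replicate numbers follow the sample titles; the file headers number the MIR15 libraries differently.

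The test on total gene reads used edgeR 4.0.16 under R 4.3.3 (filterByExpr, TMM, quasi-likelihood F test, two-sided, genotype as the sole term) over all genes, with Benjamini-Hochberg adjustment and a threshold of 0.05. The SE was derived from the F statistic. The fit was also run on simulated data, and the outcome is not given here. Alternatives were RLE factors, library size alone, other filters, DESeq2 1.42.0, unique reads, a replicate block, other read minimums, a wider gap between neighbours and leaving out each library. Named with tests were the 10 laccases with most reads, any laccase called, and those with an unadjusted p under 0.05 and groups that do not overlap; others get values, with folds for those singled out after their values were seen. Members and lists were chosen with earlier results of these data known. Of 11 lists, 9 were name patterns and could not be filled.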

Additional observations from a re-analysis of the deposited data

How the results depend on the processing

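No laccase was called by edgeR or DESeq2 under any alternative. Over all genes the count of 1 became 15 with DESeq2, 120 with the replicate block, 0 in unique reads and 0 with at least 10 reads in each library, and 0 to 8 when single libraries were left out (0 without either MIR15 replicate, 8 without WT replicate 1). At these counts of 0, edgeR gave 768 genes in unique reads, 702 with at least 10 reads in each library, 882 without MIR15 replicate 1 and 1351 without MIR15 replicate 2 with an unadjusted p under 0.05. A genotype left with 1 library is assumed to vary like the other. The gene called in the main fit, Potri.003G037700.1, had 0.0438 and 0.0573 CPM in MIR15. The minimum of 10 reads in each library left it out, so the count of 0 there was no retest of it. The laccase median went from -0.58 (without MIR15 replicate 1) to 0.23 (without WT replicate 1), and the summed ratio from -0.51 to 0.25. The title number as a replicate block gave a laccase median of -0.11 and turned Potri.008G073800.1 to -0.0901; Potri.010G183600.1 then had an edgeR adjusted p of 0.119. The deviations of same-numbered libraries had a correlation of 0.163, but no label says that they share an origin and there are only 2 pairs, so they were not taken as paired. Leaving out single libraries gave log2 fold changes from -0.87 to 0.59 for Potri.008G073800.1, -0.32 to 0.81 for Potri.010G183500.1, -0.94 to 0.41 for Potri.008G073700.1, -0.22 to 0.10 for Potri.016G112000.1, -0.80 to 0.46 for Potri.013G152700.1, -0.12 to 0.41 for Potri.010G193100.1, -0.28 to 1.00 for Potri.009G034500.1 and -0.72 to 0.31 for Potri.019G124300.1; the cause was not tested. Potri.010G183600.1 (-1.14 to -0.24), Potri.014G100600.1 (0.11 to 0.27) and Potri.001G248700.1 (-0.63 to -0.50) kept their direction under every alternative run. The count of laccases with reads in each library was 23 in unique reads, 25 at a minimum of 5 reads and 22 at 20. A gap of 2000 between ID numbers joined the 22 neighbouring members into 9 runs.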
